A study of Mus musculus with 18 samples.

Results

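The genes described here are 43 genes of mitosis: the mitotic cyclins and their kinase, the mitotic kinases, the spindle checkpoint, the centromere and kinetochore, the chromosomal passenger complex, spindle motors, cytokinesis factors and condensin. They were taken from a fixed list, and 42 of the 43 had at least 1 probe annotated to them. A gene was measured where a probe had a detection p-value below 0.05 on 3 or more arrays, and the probe with the highest mean stood for it. This left 36 members among 11921 genes measured in all. Their levels are normalised log2 intensities, on which 1 unit is a doubling before the effect of background.

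The arrays were Illumina bead arrays of total RNA from 18 samples of skeletal muscle myoblasts, 3 per labelled group. All cells came from mice of the strain Gata4tm1.1Sad/J, in which Gata4 is flanked by loxP sites. Groups labelled Wt had received adenovirus with nuclear β-galactosidase, those labelled KO adenovirus with Cre recombinase, and those labelled OE retrovirus with mouse GATA4. RNA was taken at day 0, in growth medium, and at day 3, when differentiation medium had been on the cells for 3 days. Wt and OE therefore differ in the kind of virus as well as in what it carries. Nothing in the labels says that replicates came from separate animals or dishes, and p-values therefore cover only the spread between these arrays, which may be technical.

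Mitosis is set off by active complexes of CDK1 with the cyclins A2, B1 and B2. It is carried by further kinases that build the spindle and ready the kinetochores. The checkpoint proteins hold the anaphase-promoting complex back until every kinetochore is attached, after which CDC20 lets it destroy securin and cyclin B. Most of these genes are transcribed in the G2 and M phases through promoter elements called CHR (cell cycle genes homology region), which bind the MuvB complexes, and CCAAT boxes, which bind NF-Y. Myoblasts leave the cell cycle for good when they form muscle fibres, and in resting cells MuvB is part of the repressive DREAM complex.

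The arrays did not follow their labels in the genes of muscle and of mitosis, so the arrays are described first by a muscle gene. Ckm encodes the creatine kinase of muscle. On 9 arrays its level was 10.87 to 11.39, and on the rest it was 6.78 to 8.05. The high 9 were Wt day 0 replicate 1, KO day 0 replicate 1, OE day 0 replicate 2, Wt day 3 replicates 1 and 3, the 3 KO day 3 arrays and OE day 3 replicate 1. The widest gap in the mean of Tnnt3, Mylpf, Actc1 and Acta1 placed 18 of 18 arrays in the same way. These Ckm-high and Ckm-low arrays were parted by a measured gene, are not groups of the study, and are given below as ranges and medians with no test. Between 16974 and 19966 probes were detected per array, with median intensities of 96.59 to 110.4 over a background of 90.96 to 103.9. The probe of Gata4, the targeted gene, lay between 91.91 and 116.3 intensity units and was detected on 5 arrays, so it does not check the labels. Labels exchanged between samples and samples that differed within a label cannot be told apart here. Wt, KO, OE and the days therefore stand below for the arrays so labelled.

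Of the markers of the labelled cell type, Myod1, Des and Cdh15 were detected on all 18 arrays. Myf5 was near background, at medians of 4.72 and 4.91, and was detected on 5 Ckm-low and 8 Ckm-high arrays. Pax7, the marker of resting satellite cells, was detected on 1 array of each kind. Of the 6 fibroblast and progenitor markers 1 was detected on all arrays and 1, Lum, on none, and their summed level was 7.97 to 10 on Ckm-low and 8.25 to 9.45 on Ckm-high arrays. Col1a1 was higher on Ckm-high arrays (6.13 to 7.47) than on Ckm-low arrays (4.74 to 5.61), as was Dpt (4.75 to 5.79 against 4.25 to 4.52). Thy1, Cd34 and Pdgfra had lower medians on Ckm-high arrays, 7.08 against 8.39, 4.75 against 5.68 and 4.9 against 5.26, with ranges that overlapped. The smooth muscle markers Myh11 and Cnn1 were detected on no array. Of the macrophage markers Ptprc was detected on no array, Adgre1 on 1 Ckm-high array, and Csf1r on 4 Ckm-low and 6 Ckm-high arrays. Of the endothelial markers Kdr was detected on 3 and 2, Pecam1 on 2 and 2 and Cdh5 on 1 and 0. The part of these cells in the results below was not tested. In such bulk RNA, fewer dividing cells and less RNA of these genes in each cell cannot be told apart.

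The promoters of the members that differed most between Ckm-low and Ckm-high arrays within each role are shown first. Of the 43 genes 36 had a promoter in the RefSeq table of build GRCm38.p6, which holds 250 bases before and 50 after the start of each transcript. Searched on both strands for the CHR hexamers TTTGAA and TTCGAA, 28 of these 36 genes (77.8%) held a match, against 21.7% of all 27025 genes of the table. A CCAAT box (the letters CCAAT) was held by 27 of 36 (75%) against 41.1%, and both motifs by 25 (69.4%) against 8.61%. From 60 bases before the start to 50 after it, 26 members (72.2%) held a hexamer, against 6.79% of all genes. The motifs were searched separately, and matches of both may overlap by some letters. In the sequences below, read 5′ to 3′ on the strand of the gene, capitals mark these matches on either strand. They comprise the member with the largest difference in each role class, and last Bub3, the member with the smallest among those that were lower and were detected on every array.
Cdk1 (chr10:69352863-69353162, minus strand): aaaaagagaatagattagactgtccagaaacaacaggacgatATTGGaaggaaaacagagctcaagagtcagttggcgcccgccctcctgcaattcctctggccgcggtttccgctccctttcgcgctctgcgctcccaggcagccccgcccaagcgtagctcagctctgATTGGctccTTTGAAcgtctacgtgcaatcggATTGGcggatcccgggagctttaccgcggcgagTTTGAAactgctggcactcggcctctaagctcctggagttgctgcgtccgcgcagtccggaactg
Plk1 (chr7:122159185-122159484, plus strand): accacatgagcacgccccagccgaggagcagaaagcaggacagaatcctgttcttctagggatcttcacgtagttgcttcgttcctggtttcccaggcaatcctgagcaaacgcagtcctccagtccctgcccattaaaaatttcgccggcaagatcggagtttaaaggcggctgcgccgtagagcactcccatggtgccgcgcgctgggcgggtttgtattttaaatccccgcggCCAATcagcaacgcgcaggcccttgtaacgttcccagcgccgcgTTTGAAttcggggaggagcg
Bub1b (chr2:118597961-118598260, plus strand): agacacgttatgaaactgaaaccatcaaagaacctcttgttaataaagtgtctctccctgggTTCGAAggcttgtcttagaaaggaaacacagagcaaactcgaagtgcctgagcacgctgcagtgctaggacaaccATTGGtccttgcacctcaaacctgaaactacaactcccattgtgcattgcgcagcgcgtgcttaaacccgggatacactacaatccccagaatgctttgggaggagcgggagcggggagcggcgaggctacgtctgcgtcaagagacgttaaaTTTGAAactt
Cenpa (chr5:30666636-30666935, plus strand): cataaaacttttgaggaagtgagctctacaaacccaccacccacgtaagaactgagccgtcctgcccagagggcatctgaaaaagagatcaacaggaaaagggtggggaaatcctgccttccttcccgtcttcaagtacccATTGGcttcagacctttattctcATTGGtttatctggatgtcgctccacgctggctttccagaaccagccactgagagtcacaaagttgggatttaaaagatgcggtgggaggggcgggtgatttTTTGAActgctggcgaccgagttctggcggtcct
Birc5 (chr11:117848987-117849286, plus strand): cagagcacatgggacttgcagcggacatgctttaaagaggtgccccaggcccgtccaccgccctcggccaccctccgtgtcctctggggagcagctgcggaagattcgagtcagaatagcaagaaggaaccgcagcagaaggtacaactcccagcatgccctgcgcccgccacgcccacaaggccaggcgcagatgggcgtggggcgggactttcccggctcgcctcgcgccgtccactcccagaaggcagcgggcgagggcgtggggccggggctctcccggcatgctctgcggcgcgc
Kif2c (chr4:117178723-117179022, minus strand): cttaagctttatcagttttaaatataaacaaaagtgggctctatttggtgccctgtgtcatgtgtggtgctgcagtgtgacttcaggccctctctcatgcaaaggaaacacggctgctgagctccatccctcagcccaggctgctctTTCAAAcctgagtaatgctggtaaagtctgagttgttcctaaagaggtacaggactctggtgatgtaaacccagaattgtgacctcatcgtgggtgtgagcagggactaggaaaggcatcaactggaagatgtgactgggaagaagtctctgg
Anln (chr9:22389157-22389456, minus strand): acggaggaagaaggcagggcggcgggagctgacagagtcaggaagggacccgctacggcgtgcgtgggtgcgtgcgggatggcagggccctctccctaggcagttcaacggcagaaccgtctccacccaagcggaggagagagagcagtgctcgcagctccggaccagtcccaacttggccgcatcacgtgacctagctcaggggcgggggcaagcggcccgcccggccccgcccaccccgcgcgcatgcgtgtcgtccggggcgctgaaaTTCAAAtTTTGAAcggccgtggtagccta
Top2a (chr11:99024140-99024439, minus strand): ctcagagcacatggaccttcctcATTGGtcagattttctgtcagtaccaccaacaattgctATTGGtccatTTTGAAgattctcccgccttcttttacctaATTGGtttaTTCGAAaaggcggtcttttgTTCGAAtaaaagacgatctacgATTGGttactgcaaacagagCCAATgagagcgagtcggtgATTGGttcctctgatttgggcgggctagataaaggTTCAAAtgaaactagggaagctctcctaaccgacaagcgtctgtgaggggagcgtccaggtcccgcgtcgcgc
Bub3 (chr7:131560120-131560419, plus strand): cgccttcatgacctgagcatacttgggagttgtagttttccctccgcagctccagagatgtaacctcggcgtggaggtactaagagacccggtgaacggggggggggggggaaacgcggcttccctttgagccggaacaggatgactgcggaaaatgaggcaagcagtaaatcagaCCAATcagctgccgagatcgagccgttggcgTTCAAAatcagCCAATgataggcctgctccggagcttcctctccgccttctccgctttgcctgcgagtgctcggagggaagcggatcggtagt

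In these sequences the hexamer of Cdk1 began at positions -71 and -15 from the start, and that of Plk1 at base 31 after it. It began at base 17 in Cenpa and at base 41 in Bub1b, whose other match began at -188. In Anln a match on each strand lay at bases 22 and 29, divided by 1 base. Top2a held 4 hexamers and 6 CCAAT boxes, more than any other member. Birc5 held neither, as did Mad2l1, Nusap1, Ncaph, Nuf2 and Pttg1. Bub3 held a hexamer and 2 CCAAT boxes. Among measured members with a promoter, 17 of 21 with a difference of 2 or more held a hexamer (81%), and 8 of 10 with a smaller one (80%). Among the latter, Ttk, Espl1, Pttg1, Cenpf, Nuf2, Ect2, Smc2 and Ncapg were not detected on every Ckm-high array, so background limits their differences. Kif23 is among them by its chosen probe, whereas its RefSeq probes differed by -3.05 and -3.18. Whether a hexamer goes with the size of the difference was not tested. A match is a description of letters, and a missing one says only that these letters are not in the window.

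Between the Ckm-low and the Ckm-high arrays, 30 of the 36 members had ranges that did not overlap and were lower on the Ckm-high arrays. Of all 11921 genes, 9.95% were lower in this way and 10.2% were higher. Of the members 6 were detected on fewer than 3 Ckm-high arrays and so passed the filter through the Ckm-low arrays, which favours a lower level on Ckm-high ones. Among them Ttk and Cenpf were near background on both kinds. Of the 24 members detected on every array 22 were lower without overlap, beside 12.7% of the 8020 genes detected on all 18 arrays. The median difference of the 36 members was -2.66, and that of all genes -0.01.

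**Figure D1:**
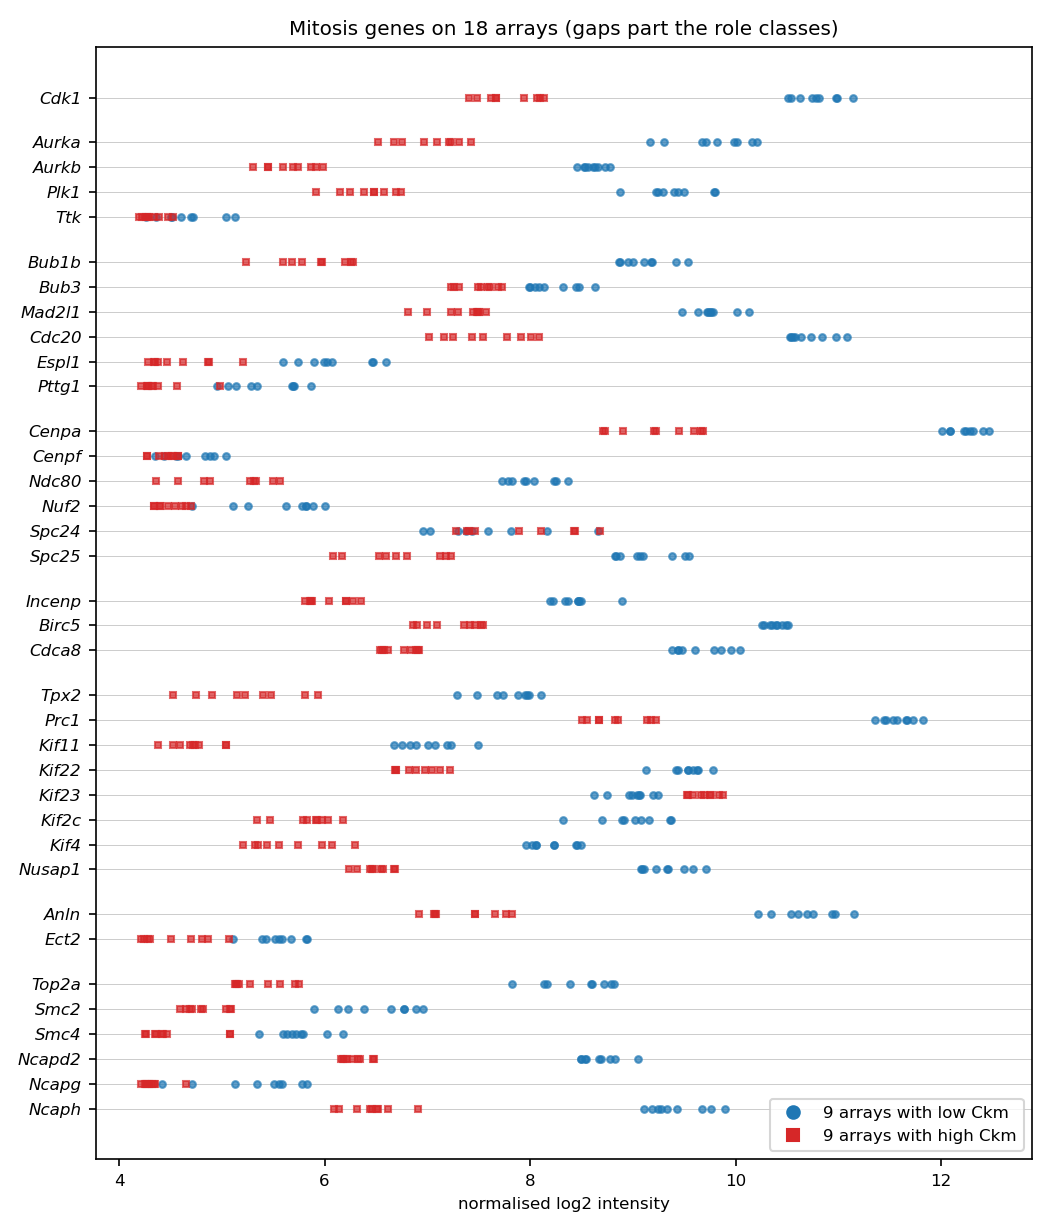
Normalised log2 intensity of each of the 36 measured members (horizontal axis) on 18 arrays, with 1 point per array, blue circles for the 9 arrays with low Ckm and red squares for the 9 with high Ckm. The squares lie below the circles without overlap for 30 members. Ttk, Cenpf, Pttg1, Ncapg and Spc24 overlap, and the chosen Kif23 probe lies higher on the arrays with high Ckm.

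Cdk1, the kinase of mitotic entry, had a lowest, median and highest value of 10.51, 10.78 and 11.14 on Ckm-low arrays. On Ckm-high arrays these were 7.4, 7.67 and 8.13, so the 2 ranges lay 2.38 apart. Its cyclin partners could not be followed. The probes of Ccna2 and Ccnb2 were detected on 1 and 0 of 18 arrays, and no probe annotated to Ccnb1 was analysed here.

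Aurka, the Aurora kinase of the spindle poles, was at 9.17, 9.82 and 10.21 (lowest, median and highest) on Ckm-low arrays and at 6.52, 7.09 and 7.42 on Ckm-high arrays. Plk1, the polo-like kinase of centrosomes and kinetochores, was at 8.87, 9.4 and 9.8 against 5.92, 6.48 and 6.74. Both kinases were thus lower on each Ckm-high array than on any Ckm-low array. Aurkb, the kinase of the passenger complex, was among the tightest members on Ckm-low arrays, at 8.46 to 8.78, and was at 5.3 to 5.98 on the others. Ttk, the checkpoint kinase MPS1, stayed near background throughout, at 4.26 to 5.13 and 4.19 to 4.52. Its probe was detected on 4 Ckm-low arrays and on no Ckm-high array. Neither probe of Bub1 was detected on any array.

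Bub1b, the checkpoint protein BUBR1, had the widest separation of the checkpoint genes, at 8.86, 9.11 and 9.54 on Ckm-low and 5.23, 5.96 and 6.28 on Ckm-high arrays. Cdc20, the activator of the anaphase-promoting complex, was at 10.53, 10.64 and 11.08 against 7.02, 7.54 and 8.09. The order of Bub1b and Cdc20 depended on the processing: with no background correction their differences were -2.13 and -2.65. Mad2l1, the inhibitor that binds CDC20, ranged from 9.48 to 10.13 and from 6.81 to 7.57. Activator and inhibitor were therefore both lower on the same 9 arrays. Bub3, the partner that carries BUB1 and BUBR1 to the kinetochore, stood apart from these with 7.99, 8.13 and 8.63 against 7.23, 7.52 and 7.73. Its ranges still did not overlap, by 0.26, and its difference of medians was -0.62. Espl1, the protease separase that cuts cohesin, had a difference of -1.55 and was detected on 9 Ckm-low and 3 Ckm-high arrays. Pttg1, its inhibitor securin, was at 4.95 to 5.87 and 4.21 to 4.98, ranges that overlapped, and was detected on 1 Ckm-high array.

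Cenpa, the histone H3 variant that marks the centromere, was at 12.01, 12.24 and 12.47 on Ckm-low and 8.71, 9.22 and 9.68 on Ckm-high arrays. Of the NDC80 complex, which ties kinetochores to microtubules, Ndc80 was at 7.73 to 8.37 and 4.36 to 5.57, and Spc25 at 8.83 to 9.55 and 6.08 to 7.23. Nuf2 was at 4.71 to 6 and 4.34 to 4.7, ranges that lay only 0.01 apart, with detection on 1 Ckm-high array. The 4th subunit, Spc24, did not share this pattern on its chosen probe, with 6.96, 7.43 and 8.66 against 7.28, 7.89 and 8.68. Cenpf was near background, and the probe of Cenpe was detected on no array.

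Of the passenger complex, which corrects faulty attachments, Birc5 (survivin) was at 10.26, 10.39 and 10.51 against 6.86, 7.36 and 7.54. Its Ckm-low arrays spanned 0.25, the narrowest span of any member on either kind of array. Incenp, the scaffold of the complex, was at 8.19, 8.47 and 8.89 against 5.81, 6.04 and 6.35, and Cdca8 (borealin) at 9.38 to 10.04 against 6.54 to 6.92. All 3 partners of Aurkb were thus lower without overlap, as Aurkb was.

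Prc1, which bundles the microtubules of the spindle midzone, was at 11.36, 11.57 and 11.82 on Ckm-low and 8.5, 8.83 and 9.22 on Ckm-high arrays. Kif2c, a kinesin that shortens microtubules, was at 8.32, 9.02 and 9.37 against 5.34, 5.92 and 6.18. Kif11, the motor that pushes the spindle poles apart, had a difference of -2.29, and its probe was detected on 6 of 9 Ckm-high arrays. Tpx2, the activator of Aurora A, had one of -2.66, Kif22 and Kif4, motors of the chromosome arms, ones of -2.65 and -2.67, and Nusap1, a spindle microtubule protein, one of -2.86. The probe of Kif20a was not detected on any array.

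Anln, the anillin of the contractile ring, was at 10.22, 10.69 and 11.15 against 6.92, 7.46 and 7.82. Ect2, the exchange factor that activates RhoA in cytokinesis, was at 5.11 to 5.83 against 4.21 to 5.07, only 0.04 apart, and was detected on 4 Ckm-high arrays. The probe of Racgap1, its partner, was detected on none of the 18 arrays.

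Top2a, the topoisomerase that untangles sister chromatids, was at 7.82, 8.59 and 8.82 against 5.13, 5.27 and 5.75. Its difference of -3.31 was the largest of the 36 members, but this rank depended on the processing. With no background correction the differences of Top2a and Anln were -1.94 and -2.75. Of condensin I, which compacts the chromosomes, Ncaph was at 9.11, 9.33 and 9.9 against 6.09, 6.46 and 6.91, and Ncapd2 at 8.49 to 9.05 against 6.16 to 6.48. The core subunits Smc2 and Smc4 were at 5.9 to 6.96 and 5.36 to 6.18 on Ckm-low arrays. On Ckm-high arrays they were at 4.59 to 5.09 and 4.25 to 5.08, and were detected on 6 and 2 of the 9. Ncapg was detected on 7 Ckm-low and on no Ckm-high array, so it has only a bound: its median was at least 1.75-fold higher on Ckm-low arrays, set against the lowest detected signal. Ttk and Cenpf, the other members detected on no Ckm-high array, had medians below that signal on both kinds.

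Several probes of a gene gave a check on these values. Of 18 members with more than 1 kept probe, 16 had a lower median on Ckm-high arrays with every one of them. The exceptions were Kif23 and Spc24. Kif23 encodes a kinesin of the centralspindlin complex, and its chosen probe ILMN_1250752, annotated to a cDNA clone, was higher on Ckm-high arrays, at 9.53 to 9.88 against 8.62 to 9.24. The 2 probes annotated to its RefSeq transcript went the other way. ILMN_1220121 was at 10.14 to 10.63 on Ckm-low and 7.05 to 7.6 on Ckm-high arrays, and ILMN_2923463 at 8.89 to 9.72 and 5.52 to 6.71. The last kept probe, ILMN_1249092, was also annotated to a cDNA clone and lay near background, with a difference of -0.47. It was detected on 6 Ckm-low and 0 Ckm-high arrays, and its ranges overlapped. The direction for Kif23 thus depends on the probe, and a higher level of the kinesin cannot be read from the chosen probe. For Spc24 both probes were annotated to the RefSeq transcript. ILMN_2615709, which was not chosen, was at 5.46 to 7.47 on Ckm-low and 4.95 to 5.77 on Ckm-high arrays, with a difference of -1.31, beside 0.47 for the chosen ILMN_2948272.

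**Figure D2:**
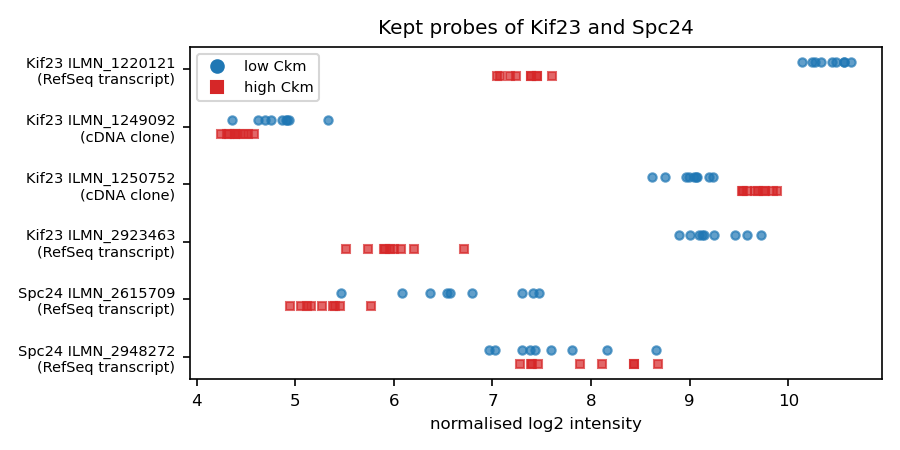
Normalised log2 intensity (horizontal axis) of every kept probe of Kif23 and Spc24, with 1 point per array, blue circles for low and red squares for high Ckm. The 2 RefSeq probes of Kif23 have squares far below the circles, while ILMN_1250752 has them above at 9.53 to 9.88. The Spc24 probes overlap between the 2 kinds of array.

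The members were not silent on Ckm-high arrays. All 9 Ckm-high arrays detected 24 of the 36 members, 9 members were detected on 1 to 8 of them, and 3 on none. With the background of each array subtracted from the deposited intensity, the 22 members that were lower and detected throughout kept between 6.46% and 53.2% of their Ckm-low signal, with a median of 10.6%. Bub1b kept 6.46%, Top2a 6.91%, Anln 8.77% and Cdk1 10.3%. Cenpa kept 14.3%, at a median of 661 intensity units above background against 4613. Of these 22 members 20 kept under 15%, and only Mad2l1 (18%) and Bub3 (53.2%) kept more. For the other lower members the Ckm-high signal was too near the background for such a share. These shares take the background as the intensity at which the detection p-value was near 0.5, and arrays were not scaled to each other for them.

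**Figure D3:**
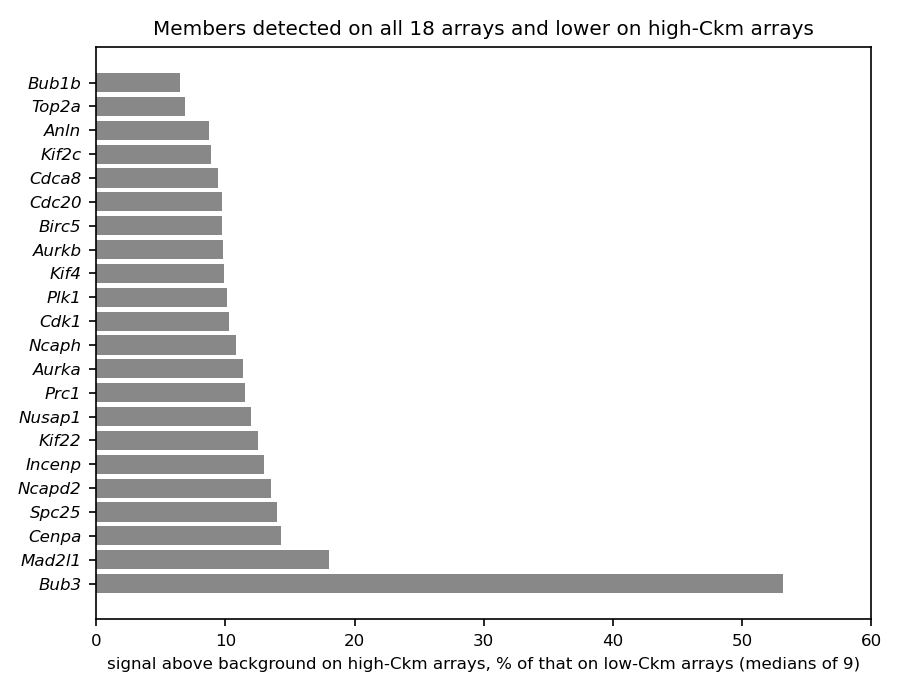
Signal above background on Ckm-high arrays as a percentage of that on Ckm-low arrays (medians of 9 arrays each), with 1 bar for each of the 22 members detected on all 18 arrays and lower on the Ckm-high ones. All bars but those of Mad2l1 and Bub3 end below 15%, and Bub3 ends at 53.2%.

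Within the labelled groups the same step appeared between replicates. In the 3 Wt day 0 arrays 33 of 36 members were lower on the Ckm-high array than on both others, where 43.6% of all genes were. The counts were 33 in KO day 0 (41.9% of all genes), 33 in OE day 0 (42.9%), 34 in Wt day 3 (41.9%) and 34 in OE day 3 (38.1%). The medians of these differences lay between -2.68 and -2.41. The KO day 3 arrays were all Ckm-high and gave no such contrast.

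By their correlation over all genes the arrays fell into 6 sets of 3 (0.9849 to 0.9949 within a set). No set had a single label, and 5 mixed the days. The sets are used here only to describe how the members varied among arrays of the same kind. Of the Ckm-high arrays, Wt day 3 replicate 3 and KO day 3 replicates 1 and 2 formed a set in which 10 of 36 members lay above all other Ckm-high arrays, beside 8.12% of all genes. These were Aurka, Plk1, Bub1b, Cdc20, Spc24, Spc25, Tpx2, Prc1, Kif4 and Ncapg. Cdc20, for example, was at 7.91, 8.09 and 8.01 on these 3 arrays and at 7.02 to 7.77 on the other 6. Tpx2 was at 5.48, 5.81 and 5.94 against 4.52 to 5.4. Of these 10 members, 8 still lay below every Ckm-low array on these 3 arrays. Spc24 and Ncapg overlapped the Ckm-low arrays, and Ncapg was detected on no Ckm-high array, so that its order among them is one of background values.

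Of the Ckm-low arrays, Wt day 0 replicates 2 and 3 and OE day 3 replicate 3 formed a set in which 8 of 36 members lay above the other 6, beside 5.28% of all genes. These were Cdk1, Bub3, Cdc20, Espl1, Pttg1, Kif4, Nusap1 and Top2a. Bub3 was at 8.63, 8.48 and 8.45 there and at 7.99 to 8.32 on the others. The set of KO day 0 replicates 2 and 3 with Wt day 3 replicate 2 had a high level of Usp18, an interferon-induced protease, at 12.4 to 12.52 against at most 5.43 on the other Ckm-low arrays. Usp18 was also high, at 9.72 to 9.94, on 3 Ckm-high arrays (replicate 1 of Wt at both days and OE day 0 replicate 2), against 4.48 to 5.38 on the other 6. On the 3 Ckm-low arrays with high Usp18, Ncaph was at 9.67, 9.76 and 9.9, against 9.11 to 9.43 on the other Ckm-low arrays. Spc24 was at 8.66, 8.16 and 7.81 there, against 6.96 to 7.59. Nuf2 was lower there, at 4.71, 5.11 and 5.25 against 5.62 to 6, as was Nusap1, at 9.08 to 9.11 against 9.22 to 9.71. Above the other Ckm-low arrays lay 2 members in this set (9.5% of all genes) and below them 2 (7.17%). The part of the interferon-induced genes in these values was not tested. The Spc24 probe also varied among Ckm-high arrays, from 8.43 to 8.68 in the first set named above to 7.28 to 7.4 on the 3 Ckm-high arrays with high Usp18. It was thus at the top of its kind in the Ckm-low set with high Usp18 and at the bottom in the Ckm-high one.

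In the set of OE day 0 replicate 2 with replicate 1 of Wt at both days, 5 members lay below the other Ckm-high arrays (12.4% of all genes), namely Bub1b, Cdc20, Spc24, Spc25 and Kif4. Aurkb and Cenpa lay above them (12% of all genes), Cenpa at 9.59, 9.68 and 9.66 against 8.71 to 9.45. In the last Ckm-high set (KO day 0 replicate 1, KO day 3 replicate 3, OE day 3 replicate 1), Cenpa and Ndc80, the latter detected on 7 of the 9 Ckm-high arrays, lay below (4.82%) and 0 members above (7.11%). In the set of OE day 0 replicates 1 and 3 with OE day 3 replicate 2, Aurka and Prc1 lay below the other Ckm-low arrays (8.84%) and Cenpa above (9.72%). Aurka was at 9.3, 9.17 and 9.67 there and at 9.71 to 10.21 on the others. Bub3 was the 1 member below in the set that had 10 above (9.55%), and 0 members lay below in the set that had 8 above (4.34%).

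A second list, of 120 other genes of mitosis, had 97 measured genes. Of these, 56 were lower on Ckm-high arrays without overlap and 0 were higher, beside 9.95% and 10.2% of all genes, with a median difference of -1.19. Of the 97, 12 were detected on fewer than 3 Ckm-high arrays and so passed the filter through the Ckm-low arrays. Kinetochore and checkpoint genes had 22 of 26 lower, with Sgo2a and Sgo1, the shugoshins that guard centromeric cohesion, at -3.12 and -3.11 and Mad1l1, which carries MAD2 to the kinetochore, at 0.43. Of spindle and cytokinesis genes 22 of 29 were lower, with Kif18b at -3.25, Knstrn at -2.78, Haus1 at 0.04 and Clasp2 at 0.14. The probe of Clasp2 was near background, with detection on 5 Ckm-low and 6 Ckm-high arrays. Genes of mitotic entry had 7 of 13 lower, with the transcription factor Mybl2 at -2.7 and the histone kinase Haspin at -2.27. Lin37, a MuvB subunit, was at 0.25 and Ensa, a phosphatase inhibitor, at 0.28. The probe of Lin37 was near background too, and was detected on 3 Ckm-low and 9 Ckm-high arrays. Condensin and cohesin genes had 5 of 14 lower, with Cdca5 (sororin) at -2.67 and Esco2 at -2.09. The condensin II subunit Ncaph2 and the cohesin releaser Wapl were at 0.08 and 0.14.

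Of the anaphase-promoting complex 0 of 15 measured genes were lower and 0 higher without overlap, beside 9.95% and 10.2% of all genes, and the median was -0.16. Ube2c, a ubiquitin-conjugating enzyme that works with the complex, was detected on 7 Ckm-low and 0 Ckm-high arrays. The other differences ran from -0.46 for Anapc5 to 0.64 for Anapc13 and 1.4 for Cdc27, all subunits. No test was made between the lists. A CHR hexamer was found in 5 of 17 promoters of these genes (29.4%), beside 21.7% of all genes. It was found in 38.5% of the promoters of the list of mitotic entry and in 48.3% for kinetochore and checkpoint. For condensin and cohesin the share was 50%, and for the spindle list 51.6%. These shares count promoters of unmeasured genes too, and the part of the hexamer in the differences was not tested.

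**Figure D4:**
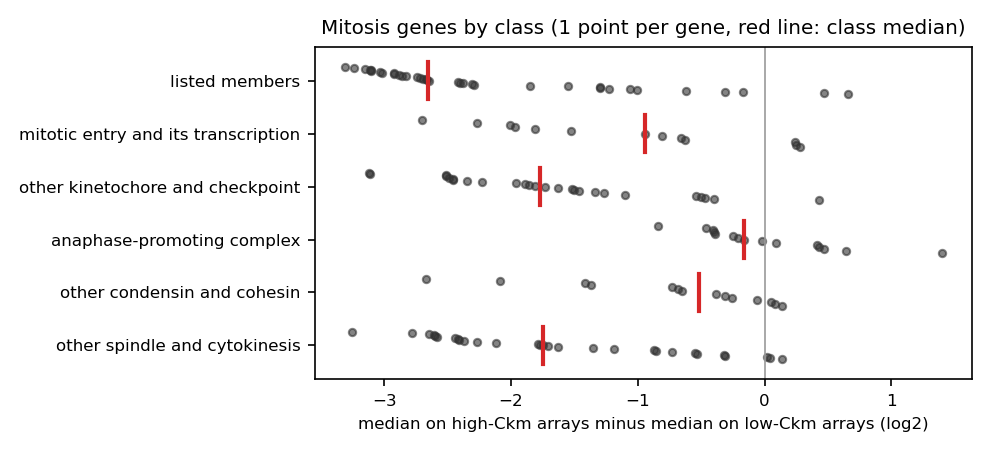
Difference between the median on Ckm-high and that on Ckm-low arrays (log2, horizontal axis) for each measured gene of mitosis, with 1 point per gene, 1 row per list and a red line at the median of each list. The listed members centre on -2.66 and the genes of the anaphase-promoting complex on -0.16.

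The labelled groups were then compared with a linear model over all genes (limma, with Benjamini-Hochberg adjustment over 11921 genes). Cdk1 shows what each group held. It was at 8.1, 10.99 and 10.98 on Wt day 0 replicates 1 to 3, at 7.48, 10.81 and 10.51 on KO day 0, and at 10.78, 7.62 and 10.63 on OE day 0. At day 3 it was at 7.67, 10.54 and 8.13 in Wt, at 7.94, 8.07 and 7.67 in KO, and at 7.4, 10.74 and 11.14 in OE. All groups but KO day 3 thus held both levels of Cdk1, and the groups overlapped in each of the 7 comparisons of 2 groups. The comparisons share arrays, Wt above all, and are not independent of each other. No gene passed an adjusted p of 0.05 in any of the 9 comparisons, so 0% of all genes and 0 of 36 members were called. The median standard error of a member was 1.06 in the 7 comparisons of 2 groups, against differences of -2.31 to 1.45.

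**Figure D5:**
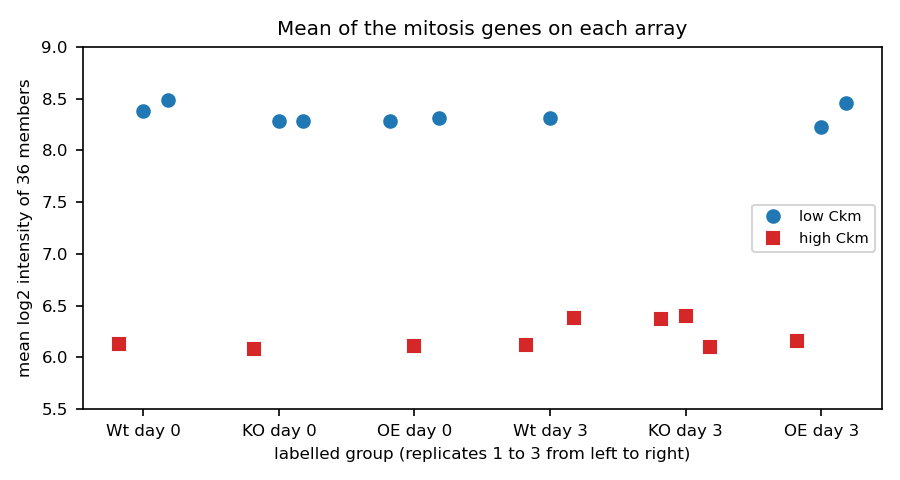
Mean log2 intensity of the 36 members (vertical axis, which does not start at 0) on each array, by labelled group with replicates 1 to 3 from left to right, blue circles for low and red squares for high Ckm. Arrays lie either between 8.23 and 8.49 or between 6.08 and 6.4, and 5 of the 6 groups hold both.

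The first comparison was of the arrays labelled KO and Wt at day 0. Both groups held 1 Ckm-high array, and the members differed little, with 25 lower and 11 higher in KO and a median of -0.2. Leaving out replicate 1 of Wt gave a median of -1.04, and leaving out that of KO gave 0.65. Kif2c had a mean of 7.5 ± 1.76 (SD, n = 3) in KO, beside 8.22 ± 1.99 in Wt. Spc24 was the member with the smallest p. Its arrays did not overlap, at 7.89, 8.66 and 8.16 in KO and 7.4, 7.3 and 7.43 in Wt, nor did those of Cenpf, which was lower in KO, where 10.3% of all genes did not overlap. The difference for Spc24 was 0.86 ± 0.28 (SE), with a limma adjusted p of 0.654. Its other probe gave 5.38, 6.37 and 6.54 in KO against 5.45, 6.57 and 6.08 in Wt. Over all genes 763 had an unadjusted p below 0.05 (6.4%), as 1 member did. Without KO day 0 replicate 1, 10 genes were called, none of them a member. With array weights, which favour arrays near their group, 1055 genes (8.85%) were called. Spc24 was the single member among them (0.9 ± 0.23, limma adjusted p 0.022).

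KO against Wt at day 3 set 3 Ckm-high arrays against 2 of 3. Of the members 32 were lower in KO, with a median of -0.76. Cenpa had a mean of 9.05 ± 0.29 (SD, n = 3) in KO, beside 10.44 ± 1.54 in Wt, from 9.21, 9.22 and 8.71 against 9.66, 12.22 and 9.45. Its groups did not overlap, nor did those of Aurkb, Mad2l1 and Ndc80, all lower in KO, beside 9% of all genes. The limma adjusted p of Cenpa was 0.945, and no member had a smaller one. Unadjusted, 0 members and 273 genes (2.29%) had a p below 0.05. With Wt replicate 2 left out the median of the members was 0.05, and with Wt replicate 1 left out it was -1.23.

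OE against Wt at day 0 set groups with 1 Ckm-high array each, and 24 members were lower and 12 higher in OE, with a median of -0.09. With Wt replicate 1 left out it was -0.93, and with OE replicate 2 left out 0.76. Aurka had a mean of 8.33 ± 1.57 (SD, n = 3) in OE, beside 9 ± 1.55 in Wt. No member had groups that did not overlap, where 11% of all genes did. The smallest adjusted p of a member in limma was 1, and 0 members and 612 genes (5.13%) had an unadjusted p below 0.05. With array weights 961 of 11921 genes were called and no member.

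OE against Wt at day 3 set 1 Ckm-high array against 2, and 33 members had higher means in OE, with a median of 0.75. With OE replicate 3 left out it was 0.25, and with OE replicate 1 left out 1.65. Kif2c had a mean of 8.14 ± 1.7 (SD, n = 3) in OE, beside 6.69 ± 1.93 in Wt. Both groups held both levels: Top2a was at 5.27, 8.6 and 8.79 in OE and at 5.14, 8.59 and 5.71 in Wt. Only Ttk, near background, had groups that did not overlap, beside 5.55% of all genes. The smallest limma adjusted p of a member was 0.92, and unadjusted 0 members and 471 genes (3.95%) lay below 0.05.

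The arrays labelled day 3 and day 0 were compared within Wt, KO and OE. In Wt, 33 members were lower at day 3, with a median of -0.82. Anln had a mean of 8.44 ± 2.18 (SD, n = 3) at day 3, beside 9.73 ± 2.3 at day 0. In KO 34 members were lower, with a median of -1.54, and Ncaph was at 6.37 ± 0.2 at day 3 and 8.68 ± 1.79 at day 0, a difference of -2.31 ± 1.18 (SE). In OE, 15 members were lower and 21 higher, with a median of 0.05. Left out in turn, single arrays moved these medians to between -1.68 (Wt day 0 replicate 1 or Wt day 3 replicate 2) and -0.39 (Wt day 3 replicate 1) in Wt. In KO the median moved to between -2.43 (KO day 0 replicate 1) and -1.02 (KO day 0 replicate 3). In OE it moved to between -0.79 (OE day 0 replicate 2) and 0.88 (OE day 3 replicate 1). The Ckm-high arrays at day 3 and day 0 numbered 2 and 1 in Wt, 3 and 1 in KO, and 1 and 1 in OE. The smallest limma adjusted p of a member for days was 0.49 in KO, 0.9 in Wt and 1 in OE. Groups did not overlap for Ttk alone in Wt (6.97% of all genes), for Ttk, Ect2 and Ncaph in KO (17.2%) and for 0 members in OE (10.7%). An unadjusted p below 0.05 was met by 0, 1 and 0 members, beside 476 (3.99%), 992 (8.32%) and 545 (4.57%) of all genes.

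Array weights changed the count in Wt and KO. In Wt they called 663 genes (5.56%), with Bub3, Pttg1, Kif11, Kif2c, Nusap1 and Anln among the members. In KO they called 6266 genes (52.6%) and 33 of 36 members. Most arrays were Ckm-low at day 0 and Ckm-high at day 3 in both Wt and KO. Under weights that favour arrays near their group, these calls cannot be told apart from the Ckm split. The change over days minus that in Wt had a member median of -0.55 in KO and 0.79 in OE, with 0 members called, smallest limma adjusted p of 1 and 0.84, and 427 and 735 genes with an unadjusted p below 0.05. Without single arrays these medians ran from -1.46 (KO day 0 replicate 1) to 0.22 (Wt day 0 replicate 1) for KO, which turns the sign. For OE they ran from 0.01 (OE day 0 replicate 2) to 1.74 (Wt day 0 replicate 1 or Wt day 3 replicate 2). Of the 97 other genes of mitosis 0 were called in either direction in any of the 9 comparisons. Their medians ran from -0.72 for days in KO to 0.45 for the OE change against the Wt change.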

How the data were processed

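The authors deposited bead intensities and detection p-values of 45281 probes on 18 arrays, not normalised per the file headers. Their second table holds processed intensities on a linear scale (column medians of 105.1 to 110.7), and how these were normalised is unknown here. Background was corrected from the detection p-values and arrays were quantile normalised with neqc of limma 3.58.1 in R 4.3.3 (offset 16), giving log2 intensities. Probes had to have a detection p below 0.05 on 3 arrays and 1 gene symbol. Entrez identifiers of the platform annotation gave current symbols for 34807 of 34885 probes. Limma fitted 1 mean per labelled group (12 residual degrees of freedom) and 9 comparisons. In a simulation of the KO and Wt arrays of day 0 over 11921 genes, 41% of genes changed by a log2 of 1 and 88% of those changed by 2 were recovered, with noise drawn independently for each gene. The changed genes were drawn from all genes. Their shares do not give the power of these comparisons and do not hold for the members, whose median standard error was 1.06. The members, lists and alternatives were chosen with earlier results of these data known. Any measured member could be named. Lowest, median and highest values together were given only for members with the highest mean or the largest or smallest difference in each role. Ckm-high and Ckm-low arrays were parted at the widest gap in Ckm. Replicate numbers did not pair the arrays: deviations from group means correlated between -0.73 and 0.79 for arrays of the same number. The number of arrays limits the precision.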

Additional observations from a re-analysis of the deposited data

How the results depend on the processing

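The count of members lower on Ckm-high arrays without overlap stayed within 1.5 times of 30 under every alternative tried, and lay between 30 and 31 when each array was left out in turn. The median difference of -2.66 was -2.34 with normexp fitted on the signals, -1.67 with no background correction, -1.6 on the authors' processed values, -2.39 with no detection filter and -2.17 with the mean of all kept probes. It was -2.84 over the members detected on all 9 Ckm-high arrays, an alternative added after the data were seen. With probes of RefSeq transcripts only, also added, the difference of Kif23 was -3.05 in place of 0.66. With no background correction the floor of the arrays stays in the values. Of 11921 genes, array weights gave 1055 (8.85%) and 1 member past the threshold in KO against Wt at day 0. They gave 961 genes in OE against Wt at day 0. For days in Wt they gave 663 genes (5.56%), 6 members and a member median of -2.07. For days in KO they gave 6266 genes (52.6%) and 33 members, and for the KO change against the Wt change 134 genes. The weighted calls for days cannot be told apart from the Ckm split. With each array left out, the count of all genes for KO against Wt at day 0 lay between 0 and 10, and the median of the members moved by over 1.5 times in each of the 9 comparisons, as given beside each. With the replicate block 0 genes and 0 members passed in each comparison, so the block changed no call. Low signal over background limits the 12 members not detected on every Ckm-high array.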
